A study of Mus musculus with 6 samples.

Results

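Macroh2a1, the gene of a histone variant that replaces H2A in nucleosomes, gave lower values in the liver of Balb/cBy mice than in Balb/c liver. The values below set it beside the other histone variant genes Macroh2a2, H2az1, H2az2, H2ax and H1f0. The 6 genes were grouped beforehand as variants not tied to DNA replication, which was not tested for any of them here. Macroh2a1 was chosen by its low values in Balb/cBy on these same arrays. Its strain difference is therefore given as a description with no test, and the same is done for the other members, since they share that contrast. Each gene was read by the probe set that carries its symbol alone. That left 5 of the 6 members, among 22180 genes in all. No probe set matched H1f0, which encodes a linker histone of resting cells, by symbol or by gene identifier, and it was not analysed here. Each of the 5 measured members had 1 such probe set.

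The mice were males of the albino inbred substrains Balb/c and Balb/cBy, 20 weeks old, with 3 livers per substrain on 1 array each. All of them, controls included, had eaten for 12 weeks a diet in which 58% of energy came from fat, so no group on ordinary food enters the comparison. Balb/cBy mice are known to carry a deletion in Acads, a gene of mitochondrial fatty acid oxidation. The labels give the substrains by these names and no supplier. Within a substrain the labels number the arrays as biological replicates.

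Canonical histones are made in bulk while DNA is copied, from clustered genes whose transcripts lack a poly(A) tail. Replacement variants are made throughout the cell cycle from single genes and are put into chromatin by their own chaperones. MacroH2A carries a large globular macro domain beyond its H2A-like part. It is abundant in differentiated tissues, liver among them, and is enriched on the inactive X chromosome and other silent chromatin. One splice form of Macroh2a1 can bind ADP-ribose and another cannot, and a single probe set does not separate them. H2A.Z, from H2az1 and H2az2, marks promoters and is put in place by the SRCAP and EP400 remodellers. H2A.X, from H2ax, is phosphorylated beside breaks in DNA.

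The stretches before the start of Macroh2a1 and of H2az1, the member with the next lowest difference, are shown for the different promoter types of the variants compared. They are from RefSeq (GRCm38.p6, of a C57BL/6J mouse, not of either Balb/c substrain), and each ends before the RefSeq gene model begins. Macroh2a1 is at chr13:56135627-56135800, minus strand, and H2az1 at chr3:137864237-137864486, plus strand. Capitals mark GC boxes (GGGCGG, or CCGCCC on the other strand) and CCAAT boxes (CCAAT, or ATTGG on the other strand).
Macroh2a1: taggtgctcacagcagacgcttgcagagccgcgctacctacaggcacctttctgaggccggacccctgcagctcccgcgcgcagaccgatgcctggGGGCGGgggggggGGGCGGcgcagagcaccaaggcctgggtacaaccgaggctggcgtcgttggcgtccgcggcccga
H2az1: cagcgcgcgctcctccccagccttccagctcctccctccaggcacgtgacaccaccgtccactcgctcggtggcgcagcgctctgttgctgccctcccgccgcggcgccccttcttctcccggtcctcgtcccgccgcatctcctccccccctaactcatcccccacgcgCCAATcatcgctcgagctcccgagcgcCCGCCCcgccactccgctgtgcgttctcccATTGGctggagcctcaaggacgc

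A promoter entry was found for 5 of the 6 members, all but H2ax. In the 250 bases before the start, Macroh2a1 held 2 GC boxes and 0 CCAAT boxes. H2az1 held 1 GC box and 2 CCAAT boxes, and H2az2 held 1 and 4. Macroh2a2 and H1f0 held 0 of either. TATA boxes (TATAAA, or TTTATA on the other strand) numbered 0 in all 5. No base fell in more than 1 motif. Unlike the stretches shown, these windows can run into the RefSeq gene model. Of the 250 bases, 174 lay before the gene model for Macroh2a1 and 182 for H2az2. Of 32851 promoter windows of this length, 33.8% held a CCAAT box, 32.7% a GC box and 12.4% a TATA box. These letter matches describe the reference windows and say nothing of binding in these livers.

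The arrays were alike as a whole, with medians between 7.66 and 7.74 and Pearson correlations between 0.972 and 0.988 over all probe sets. The tissue label was checked on 7 hepatocyte markers, among them albumin, whose mean log2 level was 12.99 to 13.11 in Balb/c and 13.07 to 13.25 in Balb/cBy. Their median strain difference was 0.02. Of 22180 genes, 0% were called at an adjusted p of 0.05 (limma, Benjamini-Hochberg over all genes), so no member was called. An unadjusted limma p under 0.05 was reached by 833, which is less than a share of 0.05 of all genes. The 2 groups were without overlap for 7.83% of genes, and for 3.51% with Balb/cBy as the lower group. The number of arrays limits the precision.

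Macroh2a1 read 10.23, 10.07 and 10.16 on the log2 scale in Balb/c replicates 1, 2 and 3, and 9.61, 9.24 and 9.36 in Balb/cBy replicates 1, 2 and 3. All 3 Balb/cBy arrays lay below all 3 Balb/c arrays, with 0.45 between the nearest values. The means were 10.15 ± 0.081 and 9.40 ± 0.19 (SD, n = 3 each). Their log2 difference was -0.75 (SE 0.12), or 0.595 of the Balb/c level. Only 17 of the 22180 genes had a lower difference, and 0.338% had a larger one in either direction. These places were the reason for its choice and support nothing further. In bulk liver, fewer cells of a type and less RNA per cell cannot be told apart.

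**Figure D1:**
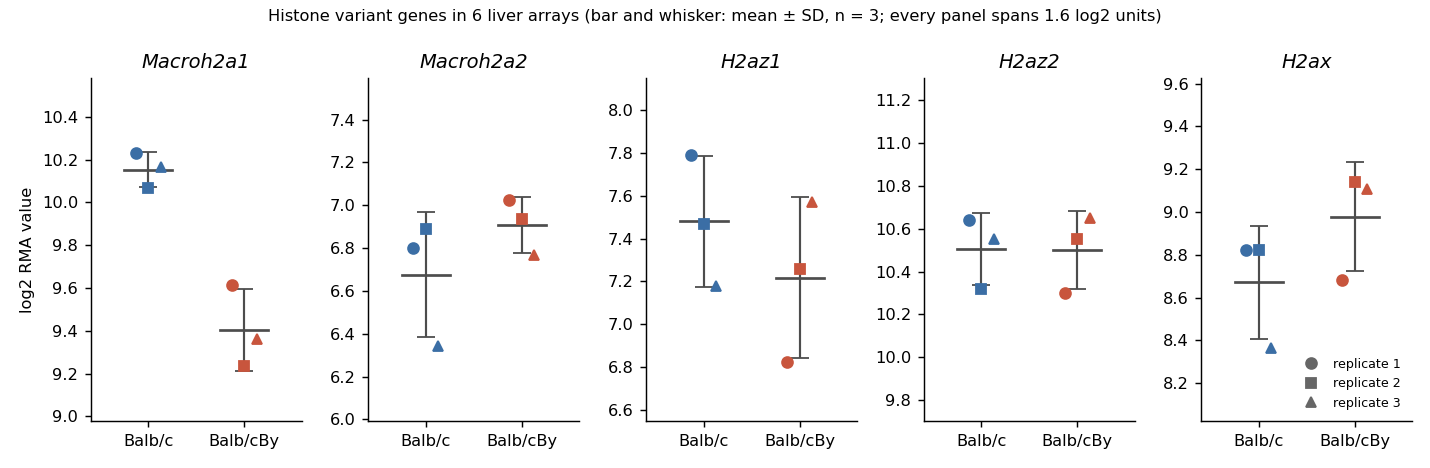
Log2 RMA values of the 5 measured histone variant genes in each of the 6 liver arrays, with the mean and SD of the 3 arrays of a strain as bar and whisker. The strains are apart for Macroh2a1, with at least 10.07 in Balb/c and at most 9.61 in Balb/cBy, and they overlap in the other 4 panels.

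Macroh2a2 encodes the other macroH2A protein, made from a gene of its own. It read 6.80, 6.89 and 6.34 in Balb/c replicates 1 to 3 and 7.02, 6.94 and 6.77 in Balb/cBy replicates 1 to 3. The groups overlapped, and Balb/c replicate 3 was the lowest array. The log2 difference was 0.23 (SE 0.15), with a 95% interval from -0.12 to 0.59, and 0.07 without Balb/c replicate 3. Its mean over the 6 arrays, 6.79, was under the lower quartile of all gene means (7.25), and it was the 1 member of 5 that a filter there removed.

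The H2A.Z genes gave unlike values. H2az1 read 7.79, 7.47 and 7.18 in Balb/c replicates 1 to 3 and 6.82, 7.26 and 7.57 in Balb/cBy replicates 1 to 3. Both strains were spread widely and overlapped. The log2 difference was -0.26 (SE 0.21), with a 95% interval from -0.75 to 0.22. It rested on Balb/cBy replicate 1, being -0.07 without that array, and also moved with Balb/c replicate 1 (-0.11 without it), Balb/c replicate 3 (-0.41) and Balb/cBy replicate 3 (-0.44). H2az2 read 10.64, 10.32 and 10.55 in Balb/c replicates 1 to 3 and 10.30, 10.55 and 10.65 in Balb/cBy replicates 1 to 3. The strains covered nearly the same range. The log2 difference was 0.00 (SE 0.13), with a 95% interval from -0.30 to 0.29. Its sign depended on the array left out, from -0.10 without Balb/c replicate 2 to 0.10 without Balb/cBy replicate 1.

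H2ax read 8.82, 8.82 and 8.36 in Balb/c replicates 1 to 3 and 8.68, 9.14 and 9.11 in Balb/cBy replicates 1 to 3. Balb/cBy replicate 1 lay within the Balb/c range, and the other Balb/cBy arrays above it. The log2 difference was 0.31 (SE 0.17), with a 95% interval from -0.08 to 0.70, and 0.15 without Balb/c replicate 3. Of the 4 members beside Macroh2a1, 2 had a higher and 2 a lower mean in Balb/cBy. Of these 4, 0 were without overlap, beside 7.83% of all genes.

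Macroh2a1 was then set against the other members array by array. The deviation of each gene from its own Balb/c mean was taken, and that of the other member subtracted from that of Macroh2a1. Against Macroh2a2 this gap was -0.98 ± 0.17 in Balb/cBy and 0 ± 0.32 in Balb/c (SD, n = 3 each), where 0 is set by the centring. Against H2ax it was -1.05 ± 0.44 in Balb/cBy, with ± 0.29 in Balb/c. Against H2az2 it was -0.75 ± 0.36, with ± 0.088 in Balb/c. For these 3 genes, all 3 Balb/cBy arrays had a gap below every Balb/c array. Against H2az1 the gap was -0.49 ± 0.53, and only 2 of 3 Balb/cBy arrays lay below every Balb/c array. In Balb/cBy replicate 1, Macroh2a1 was 0.54 below its Balb/c mean (a deviation of -0.54) and H2az1 deviated by -0.66, which left a gap of 0.12. In Balb/cBy replicate 3, Macroh2a1 deviated by -0.79 and H2az1 by 0.09. These gaps contain the values that chose Macroh2a1 and carry no test, so whether its difference is particular to it among the variants was not tested.

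**Figure D2:**
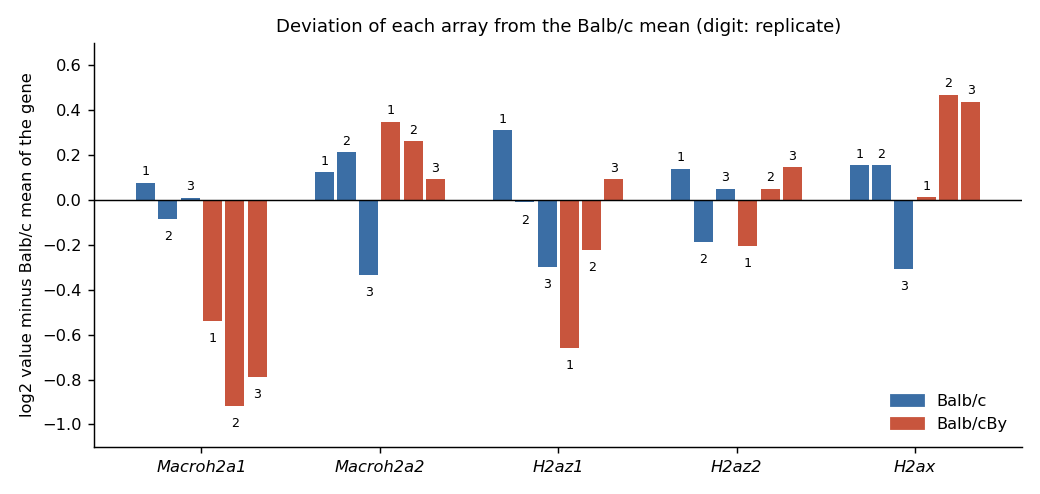
Deviation of each array from the Balb/c mean of the gene, in log2 units, for the 5 measured members, with blue bars for Balb/c, red bars for Balb/cBy and the replicate number at each bar. Macroh2a1 is at -0.54, -0.92 and -0.79 in Balb/cBy, while H2az1 is low in Balb/cBy replicate 1 (-0.66) and not in replicate 3 (0.09).

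Further variants made outside replication differed less than Macroh2a1, as nearly all genes did, since only 0.338% differed more. Of 14 listed, 9 were measured, and 0 were called, with 4 higher and 5 lower in Balb/cBy. Their median was -0.02, beside 0.00 over all genes. H1f7, a linker histone of spermatids, read 7.55, 7.49 and 7.49 in Balb/c and 7.50, 7.31 and 7.31 in Balb/cBy. Its log2 difference was -0.14 (SE 0.09, limma adjusted p = 0.999). H2ab1, a short H2A variant of testis, differed by 0.15 (SE 0.13, adjusted p = 0.999). Both genes had overlapping groups, and both are known from the germ line. Whether each of the 9 measured genes is expressed in liver was not tested, and their median includes any that are not. Cenpa, the H3 variant of centromeres, differed by 0.06 (SE 0.09), the linker histone gene H1f10 by -0.10 (SE 0.09) and the H2A variant gene H2aj by -0.02 (SE 0.11). The H3.3 genes H3f3a and H3f3b shared every probe set with other genes and were not named. The 7 probe sets that list either of them had differences from -0.17 to 0.16, 4 higher and 3 lower.

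Replication-dependent histone genes were lower in mean for 18 of 25 measured, with a median of -0.04, and 0 were called. The count of lower genes was 16 with recentred arrays, and between 14 (without Balb/cBy replicate 1) and 21 (without Balb/c replicate 3) with 1 array left out. The groups did not overlap for 2 of them (8%, beside 7.83% of all genes), H4c17 and H4c1. H4c17, an H4 gene, read 5.80, 5.73 and 5.41 in Balb/c and 5.15, 5.28 and 5.41 in Balb/cBy, with the closest arrays at nearly the same value. Its log2 difference was -0.37 (SE 0.13, limma adjusted p = 0.999). H1f5, a linker histone gene, had the lowest difference among the measured histone genes other than Macroh2a1, at -0.51 (SE 0.25, limma adjusted p = 0.999), with overlap. Its means were low, 5.39 in Balb/c and 4.88 in Balb/cBy. H1f5, H4c17 and H4c1 were all removed by a filter at the lower quartile of gene means (7.25). That filter left 11 of the 25 genes, 2 higher and 9 lower, with a median of -0.08. Many genes of these clusters are nearly identical in sequence. The 37 probe sets that list several of them, looked at after the data were seen, had a median of -0.07, with 15 higher and 22 lower. Over the 38 measured histone genes other than Macroh2a1, 13 were higher and 25 lower, and none was as low as Macroh2a1. Only 17 of all 22180 genes were lower than Macroh2a1, which was chosen for being low, so this count supports nothing further.

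Cell cycle genes, which accompany histone synthesis, had a median of -0.03 over 18 measured, 5 higher and 13 lower, and 0 were called. With recentred arrays the split was even, 9 higher and 9 lower, as it was without Balb/c replicate 1 or Balb/cBy replicate 1. It was 1 and 17 without Balb/cBy replicate 2, and 2 and 16 without Balb/c replicate 3. The proliferation marker Mki67 differed by -0.18 (SE 0.11) and the mitotic kinase gene Cdk1 by -0.28 (SE 0.17), both with overlap and a limma adjusted p of 0.999. Cdk1 was lowest in Balb/cBy replicate 1, at 7.54, the array in which H2az1 was lowest. Mki67 read 7.59 in that array and was lowest in Balb/cBy replicate 2, at 7.33. A link between H2az1 and these genes was not tested.

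Genes that place or remove histone variants were measured for 26 of 29 listed, of which 0 were called, 16 were higher and 10 lower, with a median of 0.02. The groups overlapped for all 26 of those measured, and 7.83% of all genes were without overlap. Dek, a chaperone of H3.3, differed by -0.41 (SE 0.20) and Atrx, a remodeller that works with Daxx, by -0.40 (SE 0.24), each with a limma adjusted p of 0.999. Both were high in Balb/c replicate 3 alone, where Dek read 8.96 and Atrx 8.31, while the other Balb/c arrays gave 8.31 and 8.15 for Dek and 7.38 and 7.37 for Atrx. Macroh2a1 was not highest in that array.

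Genes of macro domain proteins, ADP-ribose turnover, and the splicing or turnover of macroH2A gave 9 higher and 7 lower of 16 measured, with a median of 0.04 and 0 called. Parp1, whose product makes poly(ADP-ribose) on chromatin, differed by -0.03 (SE 0.15). Gdap2, a macro domain protein gene, read 9.38, 9.01 and 9.49 in Balb/c and 9.57, 9.82 and 9.54 in Balb/cBy, without overlap, a log2 difference of 0.35 (SE 0.14, limma adjusted p = 0.999). Spop, an adaptor that brings macroH2A1 to the Cul3 ubiquitin ligase, read 8.81, 8.85 and 9.07 in Balb/c and 8.78, 8.57 and 8.72 in Balb/cBy, also without overlap. Its log2 difference was -0.22 (SE 0.11, limma adjusted p = 0.999). These 2 of 16 make 12.5%, beside 7.83% of all genes.

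Genes of the H2A.X response to DNA damage had a median of 0.03 over 14 measured, 9 higher and 5 lower, and 0 were called. Eya3, a phosphatase of H2A.X, differed by 0.28 (SE 0.13), with overlap. Trp53bp1, which binds chromatin beside breaks, differed by 0.13 (SE 0.08), without overlap. It stood at 8.40 ± 0.024 in Balb/c and at 8.53 ± 0.034 in Balb/cBy (SD, n = 3 each). Both had a limma adjusted p of 0.999. Trp53bp1 was the 1 gene of these 14 without overlap (7.14%, beside 7.83% of all genes).

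**Figure D3:**
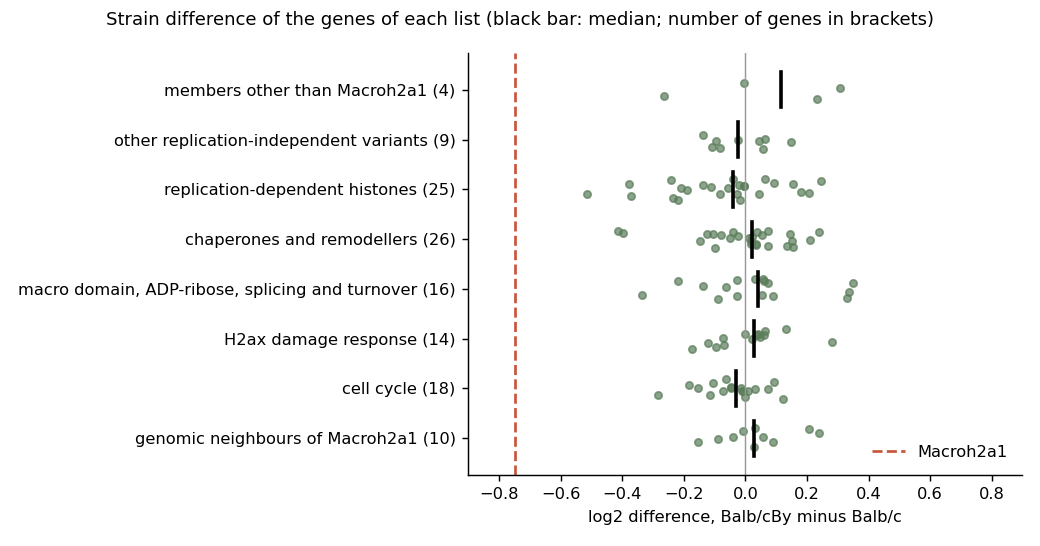
Log2 differences (Balb/cBy minus Balb/c) of the members other than Macroh2a1 and of each list of related genes, 1 point per gene, with the median as a black bar and Macroh2a1 as the dashed line. The points lie between -0.51 and 0.35, all to the right of Macroh2a1 at -0.75. Macroh2a1 was chosen for being low, and only 17 of all 22180 genes were lower.

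The medians of these lists lay near 0, and 1 array could turn their sign, except for the replication-dependent histones, which kept theirs (-0.13 to -0.01). Without Balb/cBy replicate 2 the median was -0.02 for the chaperones and remodellers, -0.03 for the macro domain and ADP-ribose list and -0.01 for the DNA damage list. Without Balb/c replicate 2 the medians of these 3 lists were -0.01, -0.01 and -0.02. The median was 0.00 for the cell cycle list without Balb/cBy replicate 1, and 0.02 for the further variants without Balb/c replicate 1. With a repeated quantile normalization the chaperone median was -0.02.

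The genes beside Macroh2a1 on its chromosome had smaller differences, of both signs. Only 0.338% of all genes had a larger difference than Macroh2a1. In the order of the RefSeq gene table, Pcbd2, Catsper3 and Pitx1 lie on one side and Tifab, Neurog1 and Cxcl14 on the other. Pitx1, a homeobox gene, differed by 0.06 (SE 0.17), and Tifab, an inhibitor of TRAF6 signalling, by 0.21 (SE 0.11). Pcbd2, a cofactor of HNF1 proteins, differed by -0.09 (SE 0.16), the sperm channel gene Catsper3 by 0.03 (SE 0.09), the neural gene Neurog1 by -0.04 (SE 0.10) and the chemokine gene Cxcl14 by 0.24 (SE 0.22). Of 10 neighbours, 5 on either side, 6 were higher and 4 lower, with a median of 0.03 (-0.02 without Balb/c replicate 3, -0.01 with Balb/cBy replicate 3 removed), and 0 were called. Txndc15, a thioredoxin domain gene, was the 1 neighbour without overlap (10%, beside 7.83% of all genes). It read 9.25, 9.11 and 9.25 in Balb/c and 9.11, 9.03 and 9.01 in Balb/cBy, where the nearest values almost touch, a log2 difference of -0.15 (SE 0.09, limma adjusted p = 0.999).

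**Figure D4:**
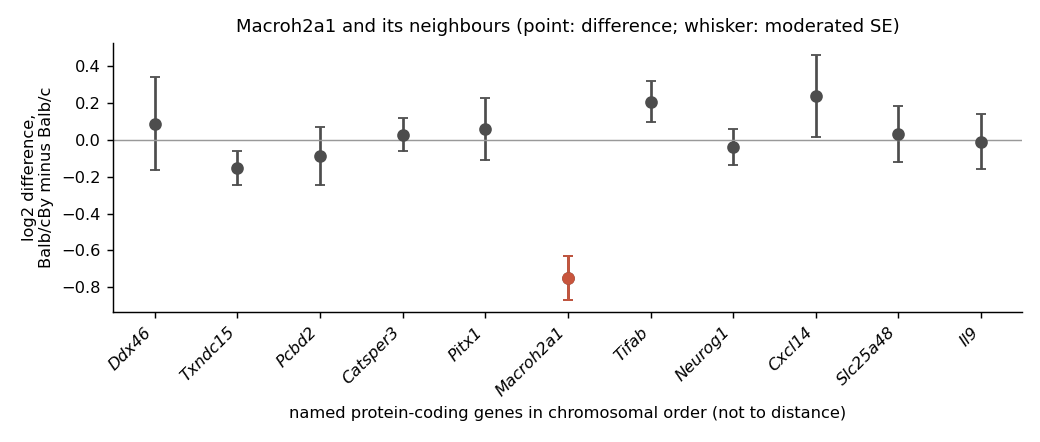
Log2 differences with moderated SE for Macroh2a1 (red) and the 5 named protein-coding genes on either side, placed in chromosomal order and not by distance. The neighbours lie between -0.15 and 0.24, and Macroh2a1 at -0.75.

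Each gene was centred on its mean over the 6 arrays, and the root mean square distance from Macroh2a1 was taken over those arrays. The 5 closest profiles were those of Inf2 (0.119), Mir9-1 (0.131), Trbv13-2 (0.149), Dcun1d1 (0.156) and Mtnr1a (0.163), all in log2 units. Inf2, a formin that shapes actin, read 8.72, 8.85 and 9.01 in Balb/c and 8.26, 7.83 and 7.98 in Balb/cBy. As in Macroh2a1, its Balb/cBy replicate 1 was the closest to Balb/c and replicate 2 the lowest. The log2 differences of the 5 genes ran from -0.84 (Inf2) to -0.47 (Dcun1d1, a neddylation gene), and each was without overlap. A profile this close to Macroh2a1 has to share its strain difference, so the match adds no separate finding. The other members lay at 0.423 for H2az1, 0.428 for H2az2, 0.534 for Macroh2a2 and 0.609 for H2ax. Of the 22180 genes, between 12720 (H2az1) and 21487 (H2ax) lay closer. These distances contain the strain difference for which Macroh2a1 was chosen, so they show nothing particular to the members.

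**Figure D5:**
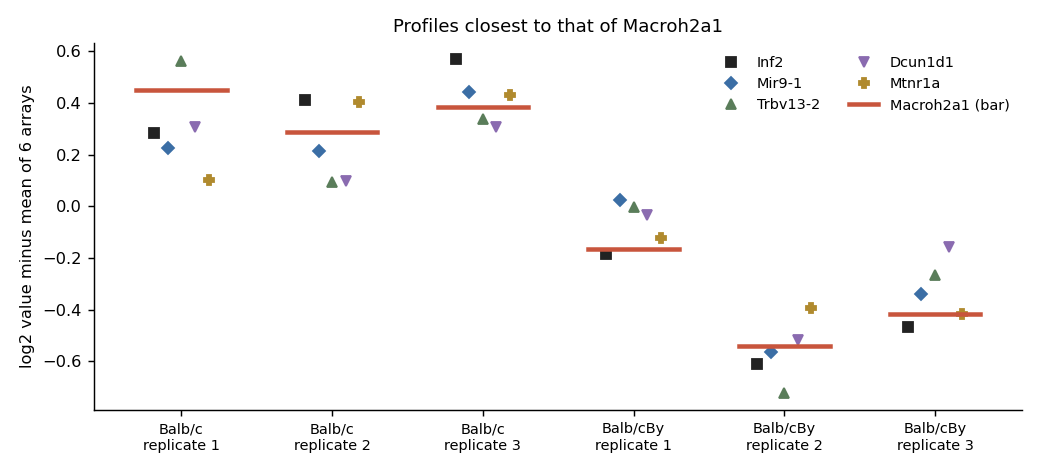
Log2 values minus the 6-array mean of the gene, for Macroh2a1 (red bars) and the 5 genes with the smallest root mean square distance from it (symbols). The symbols follow the red bars down from Balb/c to Balb/cBy, with distances over the 6 arrays from 0.119 for Inf2 to 0.163 for Mtnr1a.

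Markers of other liver cells were set beside Macroh2a1. The mean log2 level of 6 B cell and plasma cell markers was 7.68 to 7.72 in Balb/c and 7.88 to 8.20 in Balb/cBy, without overlap. Within that list Ighm (1.59, SE 0.21) and Jchain (1.12, SE 0.28), genes of secreted antibody, were higher, and the B cell surface genes Cd79b (-0.27, SE 0.10), Ms4a1 (-0.27, SE 0.09) and Cd79a (-0.17, SE 0.10) were lower. These 5 of 6 (83.3%, beside 7.83% of all genes) had no overlap, and none was called. The remaining marker of the list, Mzb1, differed by 0.06 (SE 0.12), with overlap. Ighm had 7 probe sets of its own, and the one with the highest mean was read. The mean level of the 9 macrophage and Kupffer cell markers was 9.40 to 10.18 in Balb/c and 9.64 to 10.08 in Balb/cBy, and that of the 7 endothelial markers 9.68 to 9.79 and 9.62 to 9.98. It was 9.43 to 9.74 and 9.61 to 9.90 for the 7 stellate cell markers, 7.81 to 8.02 and 7.68 to 7.85 for the 6 T cell and NK cell markers, and 7.86 to 7.86 and 7.74 to 7.96 for the 4 cholangiocyte markers. In these 5 lists the ranges of the list means overlapped between strains, while single markers did not all do so. Without overlap were 1 of 7 stellate (14.3%), 1 of 7 endothelial (14.3%) and 1 of 6 T cell and NK cell markers (16.7%). The number was 0 of 9 for macrophages and 0 of 4 for cholangiocytes, beside 7.83% of all genes. The matrix gene Dcn (0.48, SE 0.14) was higher in Balb/cBy without overlap, and the NK cell gene Nkg7 (-0.24, SE 0.09) and the endothelial receptor gene Kdr (-0.23, SE 0.13) were lower without overlap. The groups overlapped for the Kupffer cell gene Vsig4 (0.41, SE 0.16), the macrophage gene Cd68 (0.43, SE 0.23), the stellate cell gene Reln (0.36, SE 0.21), the endothelial gene Lyve1 (0.30, SE 0.19), the T cell gene Cd4 (-0.24, SE 0.15), and the bile duct genes Sox9 (0.16, SE 0.15) and Krt7 (-0.09, SE 0.11). In the hepatocyte list Serpina1a, an antitrypsin gene, differed by 0.55 (SE 0.20) and the transcription factor gene Hnf4a by 0.17 (SE 0.12), both with overlap. None of these 12 markers was called, each with a limma adjusted p of 0.999. The part of any cell type in the Macroh2a1 difference was not tested.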

How the data were processed

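The authors deposited log2 values per probe set, made with RMA per the submitters' processing notes. That the scale is log2 follows from their range. For the RMA version, the array annotation and the build, nothing is given in the sources used here. There were 41345 probe sets on 6 arrays, and no further sample column. Gene names are those of GEO's platform annotation, which gave 23521 probe sets 1 symbol and 1814 several, and left 16010 unnamed here. The probe set with the highest mean stood for a gene, without a filter, which left 22180 genes. Balb/cBy minus Balb/c was fitted over all genes with lmFit and eBayes (limma 3.58.1, R 4.3.3), with Benjamini-Hochberg adjustment and a threshold of 0.05. SEs are moderated. The fit was checked on simulated data. Recovery was required there only for changes larger than the Macroh2a1 difference.

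The members and lists were chosen with earlier results of these data known. All members were named, and of each list the 2 genes with the smallest p, since none passed. The 3 nearest neighbours on either side and the 5 closest profiles were named too. Cenpa, H1f10, H2aj, H1f5, H4c1, Parp1, Cd79a, Cd79b, Ms4a1 and Mzb1 were added after their values were seen. The fit was repeated with a replicate block, recentring, repeated quantile normalization, a filter at the lower quartile (25%) of gene means, mean probe sets, a trended robust prior, array weights, no moderation, a threshold of 0.1 and each array left out. p-values cover the spread between these mice only.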

Additional observations from a re-analysis of the deposited data

How the results depend on the processing

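Macroh2a1 kept its direction in all 13 alternatives. With 1 array left out it ran from -0.85 (Balb/cBy replicate 1 removed) to -0.66 (Balb/cBy replicate 2 removed). Among the others it ran from -0.81 with array weights to -0.73 with recentred arrays. Its groups did not overlap, so leaving out 1 array could not turn the sign. The alternatives used the values that chose the gene, so the kept direction supports nothing further. With array weights, which were estimated on these same arrays, 12 genes were called, 11 higher and 1 lower. The lower one was Macroh2a1, which was chosen on these arrays, so its call there supports nothing further. Leaving out 1 array called 0 to 3 genes (2 with Balb/c replicate 3 removed and 3 with Balb/cBy replicate 1 removed). With array weights the difference of Macroh2a2 was 0.10, that of H2az2 0.03, and the median of the chromosomal neighbours 0.060. The median of the further variants was 0.0097 with the filter on low values, and -0.058 to 0.020 with 1 array left out, while that of the neighbours was -0.022 to 0.059. The sign of both medians thus depended on the array left out. Same-numbered arrays of the strains did not deviate together (correlations of -0.32, -0.20 and -0.23), so the numbers were not taken to pair mice. With the replicate block 0 genes were called and Macroh2a1 differed by -0.75 (SE 0.12).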
